A study of Mus musculus with 6 samples.

Results

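The genes described are the 8 mouse genes listed by name for histone variants that are made outside the S phase of the cell cycle: H2az1 and H2az2 (histone H2A.Z), H2ax (H2A.X), Macroh2a1 and Macroh2a2 (macroH2A), H3f3a and H3f3b (H3.3) and Cenpa (the centromeric H3, CENP-A). They were taken by symbol from the 41709 genes of the deposited table, and all 8 were among the 18427 that passed the low-count filter. The libraries came from total RNA of the posterior nasal septum of mice given a control diet (sufficient zinc) or a zinc-deficient diet between the ages of 4 and 8 weeks, with 3 libraries per diet numbered 4, 5 and 6. Mucosa and bone were dissected together and the RNA was depleted of ribosomal RNA, so that transcripts with and without a poly(A) tail could both be read. The strain is not given in the labels. The series addresses how zinc deficiency affects the renewal of the olfactory epithelium.

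Most histone is made from replication-dependent genes, whose mRNAs have no poly(A) tail and are made while DNA is copied. Variant genes for the most part carry introns, give polyadenylated mRNAs and supply histones that are exchanged into chromatin at other times. H2ax is an exception in that its mRNA can also end in the stem-loop of replication-dependent histone mRNAs. H2A.Z is placed at promoters by the SRCAP and p400-TIP60 complexes, H3.3 is placed in active genes by the HIRA complex and in repeats by ATRX and DAXX, and CENP-A marks the site of the kinetochore. H2A.X is phosphorylated near its C-terminus beside DNA breaks, and macroH2A carries a large macrodomain and is enriched in silent chromatin. The olfactory epithelium keeps dividing basal cells throughout life, beneath neurons that no longer divide. In bulk tissue such as this, more cells of a type and more RNA per cell cannot be told apart.

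The H3.3 genes, on chromosomes 1 and 11, encode the same protein from different DNA. In translations of GENCODE M21 on GRCm38, the H3f3a and H3f3b proteins were identical over 136 of 136 residues, while 95 of 408 coding bases differed. The first 120 coding bases are shown because they show how far genes with 1 shared protein differ in the letters that reads are matched to. Capitals mark the 24 bases that differ between the genes, none of which changes a residue.
H3f3a: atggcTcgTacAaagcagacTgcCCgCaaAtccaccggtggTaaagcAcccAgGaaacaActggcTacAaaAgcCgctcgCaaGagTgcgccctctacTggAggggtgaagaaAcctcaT
H3f3b: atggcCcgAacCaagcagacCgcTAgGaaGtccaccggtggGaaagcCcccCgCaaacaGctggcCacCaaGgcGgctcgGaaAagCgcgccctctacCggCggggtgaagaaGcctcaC
The H2A.Z proteins, of 128 residues each, differed at 2 of the 127 residues that a local alignment covered. Such an alignment leaves out unlike ends, so residues outside it were not counted. Of their 384 coding bases, 80 differed. The macroH2A proteins were less alike, with 249 of 370 aligned residues identical (67.3%). CENP-A matched H3.3 at 59 of 117 aligned residues (50.4%).

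H2A.X is set apart from other H2A proteins by a C-terminal motif, serine-glutamine followed by glutamate and tyrosine, whose serine is the phosphorylated residue of gamma-H2A.X. The last 63 bases of the H2ax coding sequence with its stop codon are shown because they carry that motif. Capitals mark its codons, for residues 140 to 143 of the 143 with the start methionine counted.
H2ax: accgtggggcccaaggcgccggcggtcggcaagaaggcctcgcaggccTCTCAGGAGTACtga
A small part of the H2ax transcript matches replication-dependent H2A genes. Of its 50-base stretches, 129 of 1335 (9.66%) also occurred in transcripts of 43 other genes, on either strand. Of these 43 genes, 21 were in the deposited table and 19 had counts, most of them H2ac genes.

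The read-sharing of the other members was uneven. H2az1 shared 710 of 1113 stretches (63.8%) with transcripts of 6 other genes, of which the table held only Tmcc1, with between 1362 and 1877 counts per library. H3f3a shared 29.2%, Macroh2a2 15.4%, H3f3b 8.4% and Macroh2a1 8.2%, and H2az2 and Cenpa shared 0. No source used here says how the authors' counting split reads that match several genes, so the values of H2az1, H3f3a and H2ax are the less certain ones. H3f3a also overlaps its antisense gene H3f3aos by 168 bases, Macroh2a1 overlaps Gm47071 and Macroh2a2 overlaps Aifm2, each on the opposite strand. These 3 partners had at most 340 counts in a library, and the labels do not state that strand was kept.

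All 8 genes were detected in each library, and the library totals lay between 11731999 and 18727863 counts in genes. The least abundant member, Cenpa, had between 82 and 251 counts, and H3f3b between 2821 and 7345. A floor of 3 counts corresponded to 0.157 to 0.238 CPM (counts scaled to library size with TMM factors), below the level of each member. Markers of the olfactory neuron were present, with Omp, the olfactory marker protein gene, at 2706 ± 296 CPM in control and 3903 ± 994 in zinc-deficient libraries (SD, n = 3). Of the bone list, Col1a1, a collagen gene also expressed in other connective tissue, stood at 10904 ± 2804 and 6003 ± 2746 CPM. Dmp1 had 60.9 ± 18.3 and 35.6 ± 2.59 CPM, so markers of both labelled tissues were present. Libraries of 1 diet differed from each other by far more than sampling noise, and marrow markers (erythroid, neutrophil precursor and developing B cell genes) differed between control libraries, with mean levels of 3.34, 2.06 and 0.93 log2 CPM there and 3.79, 3.96 and 3.78 with zinc deficiency.

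Across the diets, all 8 variant genes had a positive log2 fold change in zinc-deficient libraries, and H2ax, Cenpa and H3f3b had the largest. The share of all tested genes with a positive value was 49.7%. None of the 8 passed an adjusted p of 0.05 in edgeR's quasi-likelihood test, which called 0.119% of the 18427 genes tested, and none passed limma-voom. At an unadjusted p under 0.05, 5 of 8 were higher, against 6.4% of all genes. DESeq2 called 3 of the 8 higher, H2ax, H3f3b and Cenpa, against 1.19% of its tested genes. The CPM ranges of the diets did not overlap for 5 of 8, H2az1, H2ax, H3f3b, Macroh2a1 and Cenpa, each higher with zinc deficiency, against 9.56% of all genes. The median log2 fold change of the 8 was 0.48, where that of all tested genes was −0.0021.

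**Figure D1:**
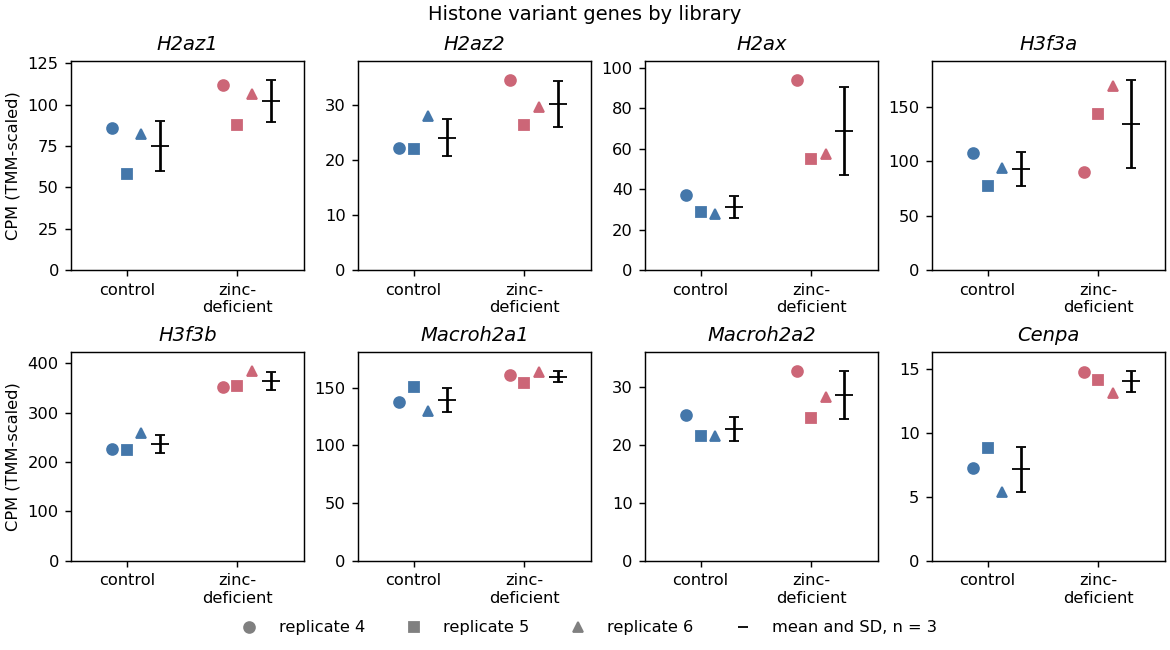
Level of each of the 8 histone variant genes in CPM (TMM-scaled, y axis from 0) in the 3 control (blue) and 3 zinc-deficient (red) libraries, with marker shape giving the replicate number and the bar giving the mean and SD. H2ax, H3f3b and Cenpa have diet groups that stand apart, and zinc-deficient replicate 4 is the highest of the 6 for H2ax and lies among the control libraries for H3f3a.

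H2ax (ENSMUSG00000049932, chromosome 9, 44245991 to 44247374 as deposited), which encodes the H2A.X whose end is shown above, had the largest difference of the 8. Its level was 37.3, 28.6 and 27.7 CPM in control replicates 4, 5 and 6, while the zinc-deficient libraries had 93.9, 55.1 and 57.4 CPM. Every zinc-deficient library lay above every control library, and zinc-deficient replicate 4 stood well above the other two. The means of 31.2 ± 5.30 and 68.8 ± 21.8 CPM (SD, n = 3) corresponded to a 2.20-fold difference (log2 fold change 1.14, standard error, SE, 0.21). It missed the threshold in edgeR (adjusted p = 0.0849) and passed in DESeq2 (adjusted p = 8.39e-05). Without zinc-deficient replicate 4 its log2 fold change was 0.86. The authors' deposited table gives it a log2 fold change of 1.14 and an FDR-adjusted p of 1.33e-05.

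The 17 replication-dependent H2A genes, most of which share stretches with H2ax, had a higher sum in the same libraries, though not each gene did. Their summed deposited RPKM (reads scaled to transcript length and to library size) was 248, 157 and 241 in control replicates 4, 5 and 6, while the zinc-deficient libraries had 554, 407 and 433, and zinc-deficient replicate 4 was again the highest. Among them H2ac23 had 0 counts in each library, and H2ac18 had 33.7 CPM in zinc-deficient replicate 4 against 44.2 and 51.4 CPM in control replicates 4 and 6. The part of shared reads in the H2ax difference was not tested. The ratio of H2ax to both H2A.Z genes, which does not depend on scaling between libraries, was 0.346, 0.358 and 0.252 in counts in control libraries and 0.641, 0.484 and 0.422 in zinc-deficient ones. The groups did not overlap, and the log2 ratio differed by 0.69 (exact permutation p = 0.1, two-sided, the smallest that 3 against 3 allows; 0.5 after Benjamini-Hochberg adjustment over 5 ratios).

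The H2A.Z genes, whose product is exchanged into nucleosomes at promoters, differed less. H2az1 (ENSMUSG00000037894, chromosome 3, 137570248 to 137572683) had 85.7, 57.8 and 82.0 CPM in control libraries and 112, 87.5 and 106.4 CPM in zinc-deficient ones. The ranges were apart by a small margin, with control replicate 4 just under zinc-deficient replicate 5. The log2 fold change came to 0.44, SE 0.16 (edgeR adjusted p = 0.310), and without control replicate 5 it was 0.28. H2az2 (ENSMUSG00000041126, chromosome 11, 6377229 to 6394443) had 22.2, 22.1 and 28.1 CPM in control and 34.6, 26.4 and 29.6 CPM in zinc-deficient libraries, and the ranges overlapped. Its log2 fold change came to 0.32, SE 0.17 (edgeR adjusted p = 0.447). The log2 ratio of H2az1 to H2az2 counts was 1.63 ± 0.29 in control and 1.76 ± 0.08 in zinc-deficient libraries (SD, n = 3), a difference of 0.13 within the spread between libraries (exact permutation p = 0.5).

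The macroH2A genes, both encoding a histone fold joined to a macrodomain, had the smallest shifts together with H2az2. Macroh2a1 (ENSMUSG00000015937, chromosome 13, 56221432 to 56284174) had 137, 151 and 130 CPM in control and 161, 154 and 163 CPM in zinc-deficient libraries. Its ranges did not overlap although the means differed by only 1.15-fold (log2 fold change 0.20, SE 0.12, edgeR adjusted p = 0.512). Macroh2a2 (ENSMUSG00000020086, chromosome 10, 61574444 to 61619926) had 25.1, 21.6 and 21.5 CPM in control and 32.8, 24.6 and 28.3 CPM in zinc-deficient libraries, with overlapping ranges. Its log2 fold change came to 0.33, SE 0.16 (edgeR adjusted p = 0.431). The log2 ratio of Macroh2a1 to Macroh2a2 was 2.62 ± 0.18 and 2.49 ± 0.18 (exact permutation p = 0.5).

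The H3.3 genes behaved differently from library to library although their proteins are identical. H3f3b (ENSMUSG00000016559, chromosome 11, 115912738 to 115918788) had 227, 224 and 258 CPM in control and 351, 354 and 385 CPM in zinc-deficient libraries. The groups were far apart beside the spread within each diet, with means of 236 ± 19.1 and 363 ± 18.6 CPM (SD, n = 3). The log2 fold change came to 0.62, SE 0.13, a 1.54-fold difference, and it missed the threshold in edgeR (adjusted p = 0.107) and passed in DESeq2 (adjusted p = 0.000475). In the authors' deposited table its FDR-adjusted p was 0.301.

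H3f3a (ENSMUSG00000060743, chromosome 1, 180628397 to 180641508) had 108, 77.1 and 94.1 CPM in control and 89.9, 143 and 169 CPM in zinc-deficient libraries. Zinc-deficient replicate 4 lay inside the control range while the other two lay above it, so the groups overlapped. The log2 fold change came to 0.53, SE 0.22 (edgeR adjusted p = 0.345). Without zinc-deficient replicate 4 it was 0.75 and without zinc-deficient replicate 6 it was 0.33, both short of the threshold. The ratio of H3f3a to H3f3b counts was 0.476, 0.344 and 0.364 in control libraries and 0.256, 0.404 and 0.440 in zinc-deficient ones. The lowest of the 6 was zinc-deficient replicate 4, and the mean log2 ratio differed by −0.13 between the diets (exact permutation p = 0.8). Leaving out that library turned the difference to 0.11, and leaving out control replicate 4 turned it to 0.01.

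Cenpa (ENSMUSG00000029177, chromosome 5, 30824121 to 30832174) encodes the H3 variant that carries the centromere from one division to the next. It had 7.23, 8.83 and 5.36 CPM in control and 14.8, 14.2 and 13.1 CPM in zinc-deficient libraries, and each zinc-deficient value was above each control value. The means of 7.14 ± 1.73 and 14.0 ± 0.83 CPM (SD, n = 3) corresponded to a 1.97-fold difference (log2 fold change 0.98, SE 0.22). The edgeR adjusted p was 0.144 and the DESeq2 adjusted p 0.0142. In the authors' deposited table Cenpa had an FDR-adjusted p of 0.0161, and with H2ax it was 1 of 2 members under 0.05 there, where 1.12% of all genes with a value were called higher. The log2 ratio of Cenpa to both H3.3 genes was −5.55 ± 0.47 in control and −5.14 ± 0.25 in zinc-deficient libraries, with overlapping ranges (exact permutation p = 0.3).

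**Figure D2:**
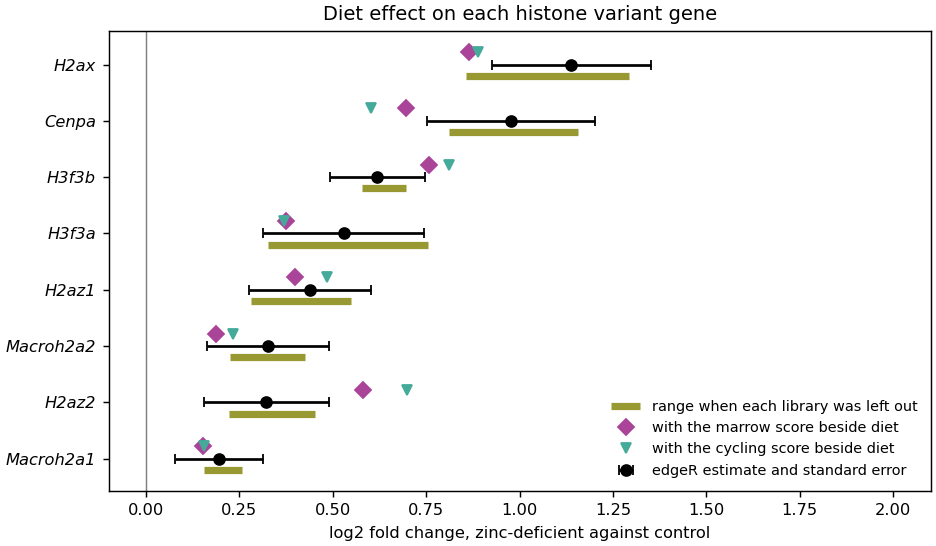
Log2 fold change (zinc-deficient minus control, edgeR) of each variant gene with its standard error, 3 libraries per diet. All 8 lie above 0, from 0.20 for Macroh2a1 to 1.14 for H2ax, and none passed an adjusted p of 0.05.

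Markers of dividing cells were also higher beside Cenpa and H2ax. All 25 of 25 listed G2 and M phase genes were positive (median log2 fold change 0.80), and 0 passed edgeR. At an unadjusted p under 0.05 there were 13 of 25, and DESeq2 called 5. Their summed level lay between 114 and 252 CPM in control and between 287 and 348 CPM in zinc-deficient libraries, with none of the 25 at 0. Cdc20, which activates anaphase onset, differed by 1.50 on the log2 scale (adjusted p = 0.0673 in edgeR), and Mki67, which coats mitotic chromosomes, by 1.01 (adjusted p = 0.524 in edgeR). Of 25 S phase genes 24 were positive, with a median of 0.51, 0 past edgeR, 11 at an unadjusted p under 0.05 and 4 called by DESeq2. Their summed level was 226 to 278 CPM in control and 333 to 390 CPM in zinc-deficient libraries. Mcm5, a subunit of the replicative helicase, had 1.26 (edgeR adjusted p = 0.0849), its partner Mcm7 0.40 and the sliding clamp gene Pcna 0.15. With the mean log2 CPM of the G2 and M phase list as a term beside the diet, the log2 fold change was 0.60 for Cenpa, 0.89 for H2ax, 0.81 for H3f3b, 0.37 for H3f3a, 0.48 for H2az1, 0.70 for H2az2, 0.16 for Macroh2a1 and 0.23 for Macroh2a2, and the edgeR adjusted p was at least 0.883 for all 8.

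Markers of marrow cells lay in the same direction and varied more. Of 19 tested erythroid genes 18 were positive (median log2 fold change 1.50, 0 past edgeR, 5 at an unadjusted p under 0.05, 1 by DESeq2), with a summed level of 581 to 1969 CPM in control and 1641 to 4523 CPM in zinc-deficient libraries. Hba-a2, an alpha globin gene, was highest in zinc-deficient replicate 4, at 1911 CPM against 588 and 565 CPM in the other zinc-deficient libraries. That library was also highest for H2ax and for the neuron gene Omp (5051 CPM against 3344 and 3313 CPM in the other zinc-deficient libraries). For the mean of the developing B cell list it was the lowest zinc-deficient library (1.97 against 3.34 and 3.38 log2 CPM). Of 12 neutrophil precursor genes 11 were positive (median 1.78, 0 past edgeR, 6 at an unadjusted p under 0.05, 1 by DESeq2), with 397 to 2410 CPM in control and 631 to 1432 CPM in zinc-deficient libraries. Ltf, the lactoferrin gene, made up most of that sum in every library but zinc-deficient replicate 5 (282 of 631 CPM). It was the 1 negative member (1587, 343 and 2399 CPM in control, 663, 282 and 1197 CPM in zinc-deficient libraries). The other 11 genes, summed after the data were seen, had 11.0 to 171 CPM in control and 235 to 350 CPM in zinc-deficient libraries. Of 12 tested developing B cell genes 11 were positive (median 1.69), and Igll1, which encodes a surrogate light chain component, rose from 0.311, 0 and 0.131 CPM in control libraries to between 2.93 and 3.54 CPM in zinc-deficient ones (edgeR adjusted p = 0.0373). The summed level of that list was 173 to 272 CPM in control and 228 to 336 CPM in zinc-deficient libraries, and without its most abundant gene, Ebf1, 37.9 to 65.6 and 46.4 to 116 CPM. The erythroid, neutrophil precursor and B cell medians became 2.35, 3.16 and 2.69 without control replicate 4, and the erythroid median 0.87 without zinc-deficient replicate 4. With the mean of the 3 marrow lists as a term beside the diet, the log2 fold change was 0.87 for H2ax, 0.70 for Cenpa, 0.76 for H3f3b, 0.37 for H3f3a, 0.40 for H2az1, 0.58 for H2az2, 0.15 for Macroh2a1 and 0.19 for Macroh2a2 (edgeR adjusted p at least 0.866). In that fit the median of the G2 and M phase genes was 0.03 and that of the S phase genes 0.28.

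Among the cells of the septum itself, olfactory neuron genes were positive in 13 of 13 (median log2 fold change 0.35, 0 past edgeR, 7 at an unadjusted p under 0.05, 0 by DESeq2), and their summed level was 6178 to 7470 CPM in control and 8326 to 9961 CPM in zinc-deficient libraries. Omp differed by 0.53 on the log2 scale (edgeR adjusted p = 0.327). Basal and progenitor genes were mixed, with 7 of 12 positive, a median of 0.05, 0 past edgeR and 3 at an unadjusted p under 0.05. In that list Lgr5, a marker of dividing basal cells, stood at −1.03 on the log2 scale (edgeR adjusted p = 0.105), and DESeq2 called it lower. Supporting cell, gland and respiratory genes were 6 of 12 positive with a median of 0.05, 0 past edgeR, 2 at an unadjusted p under 0.05 and 1 called lower by DESeq2, and the ciliary dynein gene Dnah5 had −0.79 (edgeR adjusted p = 0.180). Bone genes were positive in 1 of 13, with a median of −0.57, 0 past edgeR, 8 at an unadjusted p under 0.05 and 4 called lower by DESeq2. Over all genes, DESeq2 called 343 of 16865 in either direction. The unadjusted counts of all lists hold both directions, and over all genes only the share that was higher was taken (6.4%). Bone genes summed to 11975 to 20330 CPM in control and 6606 to 13800 CPM in zinc-deficient libraries. The part of these cell types in the variant gene differences was not tested. The fits with the marrow and cycling scores cannot decide it, because each score by itself already separated the diets. The lowest zinc-deficient marrow score was 3.78 and the highest control one 3.34. For the cycling score these were 2.935 and 2.64. The SE of the H2ax log2 fold change, 0.21 with diet alone, was 0.34 beside the marrow score and 0.40 beside the cycling score.

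The factors that place or read the variants had median differences near 0, and DESeq2 called 0 genes in each of their 5 lists. Of 22 genes for H2A.Z exchange complexes, 11 were positive and 0 passed edgeR, with a median log2 fold change of −0.0007 and 3 at an unadjusted p under 0.05. Srcap, the ATPase that deposits H2A.Z, had 369 ± 26.5 CPM in control and 354 ± 6.82 CPM in zinc-deficient libraries (SD, n = 3; log2 fold change −0.06). Znhit1, a subunit of the same complex, had 0.05. Anp32e, which removes H2A.Z, had 51.1 ± 2.18 and 64.4 ± 2.96 CPM, with separate ranges and log2 fold change 0.34 (edgeR adjusted p = 0.296).

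Of 7 genes for H3.3 deposition, 4 were positive with a median of 0.0015, 0 passed edgeR and 1 had an unadjusted p under 0.05. Ubn1 and Cabin1, of the HIRA complex, had log2 fold changes of 0.0015 and −0.07. Atrx, the remodeller that works with DAXX, had 182 ± 26.7 CPM in control and 135 ± 26.9 CPM in zinc-deficient libraries (log2 fold change −0.43, SE 0.17, edgeR adjusted p = 0.328). Of 7 genes for CENP-A deposition 3 were positive, with a median of −0.02, 0 past edgeR and 0 at an unadjusted p under 0.05. Hjurp, the chaperone of CENP-A, had 328 ± 44.8 and 330 ± 16.3 CPM (log2 fold change 0.01) where Cenpa differed 1.97-fold. The mean deposited RPKM was 19.5 for Hjurp and 0.904 for Cenpa. Overlaps and shared stretches were examined for the members only, not for Hjurp. Npm1, a nucleolar histone chaperone, had a log2 fold change of −0.04.

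Of 16 genes of the constitutive centromere network, which binds CENP-A nucleosomes, 7 were positive, with a median of −0.02, 0 past edgeR and 0 at an unadjusted p under 0.05. Cenpm differed by 0.88 on the log2 scale (edgeR adjusted p = 0.413), Cenpo by 0.15 and Cenpx by −0.07. Of 13 genes of gamma-H2A.X signalling 3 were positive, with a median of −0.05, 0 past edgeR and 2 at an unadjusted p under 0.05. Atm, a kinase that phosphorylates H2A.X, had 42.9 ± 6.12 and 31.2 ± 4.00 CPM (log2 fold change −0.46, edgeR adjusted p = 0.281), while Baz1b, a kinase of its C-terminal tyrosine, had −0.05 and Ppp4c, a phosphatase subunit, −0.01. Of 11 other variant genes 3 were abundant enough to test and 4 had 0 counts. The 3 were positive (median log2 fold change 0.39), 0 passed edgeR, 2 had an unadjusted p under 0.05 and DESeq2 called 1. H1f10, a replication-independent linker histone, had 14.2 ± 1.96 CPM in control and 25.3 ± 7.10 CPM in zinc-deficient libraries (log2 fold change 0.83, edgeR adjusted p = 0.182, DESeq2 adjusted p = 0.0330). H1f0, the linker histone of cells that stopped dividing, differed by 0.39 on the log2 scale (edgeR adjusted p = 0.262) and H2aj by 0.25 (edgeR adjusted p = 0.734).

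**Figure D3:**
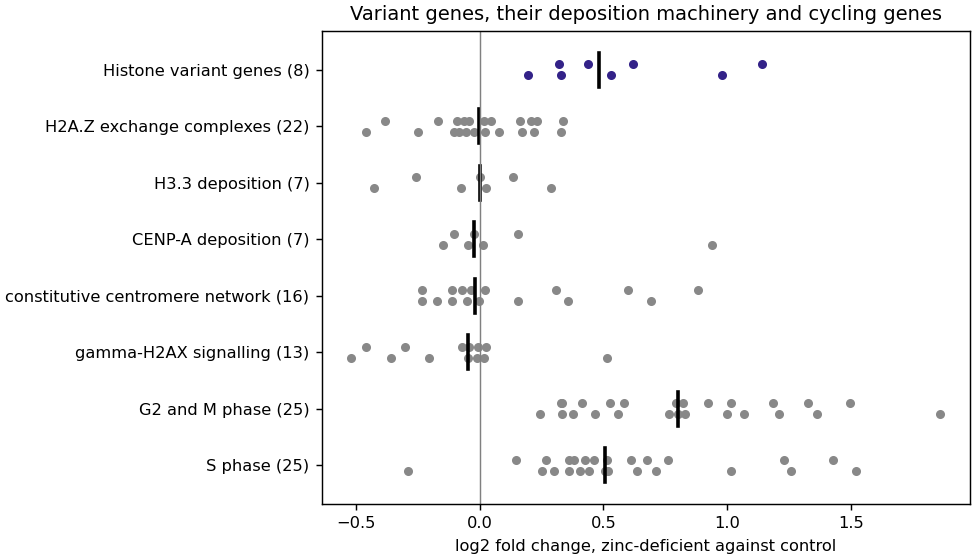
Log2 fold change (zinc-deficient minus control, edgeR) of the 8 variant genes and of each tested gene of the lists drawn (points), with medians. The lists are the factors that place or read the variants, the G2 and M phase genes and the S phase genes. Deposition, centromere and signalling lists centre near 0, and the variant genes (median 0.48) and cell cycle lists (medians 0.51 and 0.80) lie above 0.

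The sum of the 8 genes was 649, 591 and 647 CPM in control and 890, 859 and 953 CPM in zinc-deficient libraries. The groups were apart, with means of 629 ± 32.9 and 901 ± 47.6 CPM (SD, n = 3), a 1.43-fold difference (exact permutation p = 0.1, two-sided, the smallest possible). H3f3b supplied between 34.9% and 41.3% of that sum in each library.

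Beside the replication-dependent genes of their families, the variants took a smaller share in zinc-deficient libraries. The H3.3 genes held 19.6%, 25.5% and 28.4% of the summed deposited RPKM of H3.3 and H3c genes in control replicates 4, 5 and 6, while in zinc-deficient libraries they held 10.4%, 15.8% and 16.7%. The ranges did not overlap, and the share differed by −10.2 percentage points (exact permutation p = 0.1, two-sided). H3.3 itself was higher, at 52.4, 44.4 and 54.6 RPKM against 68.3, 84.6 and 96.2 RPKM, while the H3c genes went from 216, 130 and 138 RPKM to 588, 450 and 480 RPKM. For H2A, the sum was that of the 5 variants and the H2ac genes. H2aj, with a mean of 14.2 RPKM, was in neither part. The 5 variants held 19.2%, 22.3% and 18.3% of that sum in control and 14.1%, 15.3% and 16.4% in zinc-deficient libraries. The difference was −4.67 percentage points (exact permutation p = 0.1). As shares of counts in place of RPKM, the differences were −15.1 percentage points for H3 and −9.51 for H2A. These shares rest on 12 H3c genes, 11 with counts, and 17 H2ac genes, 16 with counts, many of them near-identical copies. The RPKM shares also depend on the length behind each RPKM, which for Macroh2a1 came out at 6809 bases where its transcript has 2046.

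**Figure D4:**
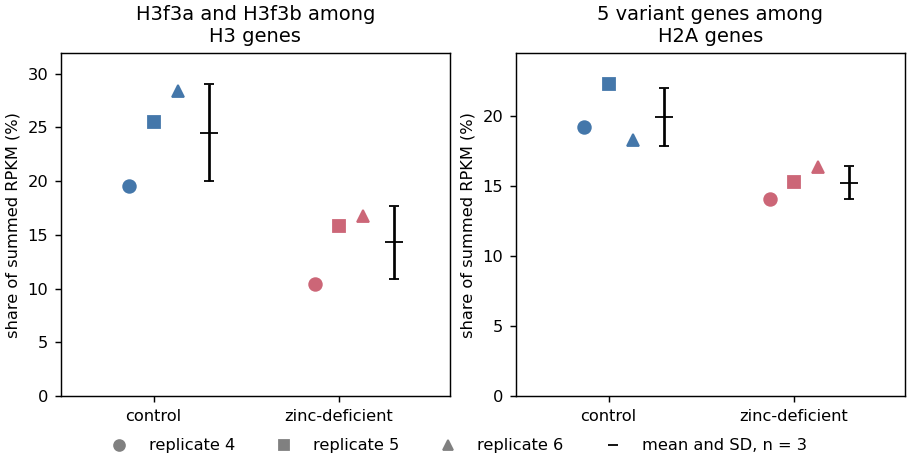
Share of variant genes in the summed deposited RPKM of their histone family (percent, y axis from 0) for H3 and for H2A. Points are libraries, with the mean and SD of 3 libraries per diet. The H2A family drawn is the variants described and the H2ac genes, without H2aj. In both families the 3 zinc-deficient libraries lie below the 3 control libraries, at 10.4% to 16.7% against 19.6% to 28.4% for H3.

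In deposited RPKM, which allows levels of different genes to be compared, H3f3b was the most abundant variant, with a mean of 50.4 RPKM over the 6 libraries and a range of 34.4 to 70.0. No other member reached its lowest library. H2az1 followed with 24.9 RPKM, then H2ax with 18.0, H3f3a with 16.3, Macroh2a1 with 10.9, H2az2 with 8.26 and Macroh2a2 with 5.85 RPKM, and each of these overlapped its neighbour in the order over the 6 libraries. Cenpa, at 0.904 RPKM, was separate from all others. In control libraries H3f3a was 3rd and H2ax 4th (12.7 ± 2.53 and 10.8 ± 2.13 RPKM), and in zinc-deficient libraries H2ax was 3rd and H3f3a 4th (25.3 ± 6.10 and 19.99 ± 7.13 RPKM), with overlap in both diets. Within each diet the order Macroh2a1, H2az2, Macroh2a2, Cenpa was separate at each step.

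**Figure D5:**
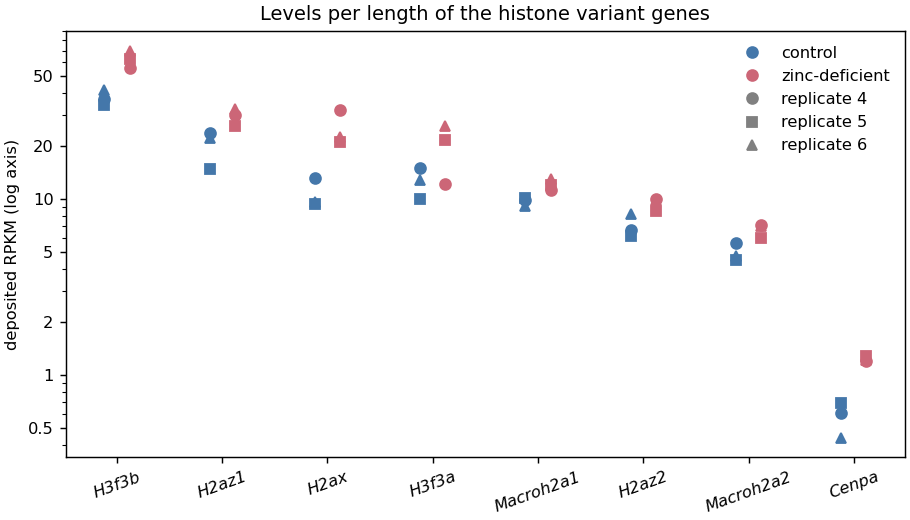
Deposited RPKM (log axis) of the 8 variant genes in the order of their mean over 6 libraries, control in blue and zinc-deficient in red, with marker shape for the replicate number. H3f3b lies above all others at 34.4 to 70.0 RPKM and Cenpa below all others at 0.440 to 1.28 RPKM.

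That order depends on the length by which counts were divided. Taking the single-exon H2ax at its listed span of 1384 bases, the deposited RPKM of Cenpa had been made with a length of 5860 bases, where its GENCODE M21 transcript has 1466, and that of Macroh2a1 with 6809 bases, where its transcript has 2046. For H2az2 and Macroh2a2 the length came out equal to the transcript, at 1633 and 2175 bases. Divided by the length of that 1 transcript, Macroh2a1 stood at 36.2 RPKM and in 3rd place, H2az1 at 41.3, H3f3b at 75.3 and Cenpa at 3.61 RPKM, still the lowest mean. The highest Cenpa library, at 5.11 RPKM, then overlapped Macroh2a2, whose lowest was 4.52. H3f3b was no longer separate either, with a lowest library of 51.3 RPKM where H2az1 reached 53.9. This alternative was added after the data were seen, and it leaves the fold between diets of each single gene as it is.

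The promoters of Cenpa and H3f3b are shown because these genes had, after H2ax, the largest differences with separate ranges. Both are RefSeq windows on GRCm38.p6 from 250 bases before to 50 bases after the gene start, read 5′ to 3′ on the strand of the gene. Capitals mark motifs found by letters on either strand. The box bound by NF-Y was searched as CCAAT, so a match on the other strand shows its reverse complement. The core of the cell cycle homology region (CHR) was searched as TTTGAA, without the bases that flank it. The TATA box of core promoters was searched as TATAAA.
Cenpa, chr5:30666636-30666935, plus strand: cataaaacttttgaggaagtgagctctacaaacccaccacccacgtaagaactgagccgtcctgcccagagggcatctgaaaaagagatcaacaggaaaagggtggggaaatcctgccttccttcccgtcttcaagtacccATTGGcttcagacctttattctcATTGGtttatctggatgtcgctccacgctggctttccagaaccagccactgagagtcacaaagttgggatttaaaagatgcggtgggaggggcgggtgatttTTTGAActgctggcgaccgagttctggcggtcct
H3f3b, chr11:116024455-116024754, minus strand: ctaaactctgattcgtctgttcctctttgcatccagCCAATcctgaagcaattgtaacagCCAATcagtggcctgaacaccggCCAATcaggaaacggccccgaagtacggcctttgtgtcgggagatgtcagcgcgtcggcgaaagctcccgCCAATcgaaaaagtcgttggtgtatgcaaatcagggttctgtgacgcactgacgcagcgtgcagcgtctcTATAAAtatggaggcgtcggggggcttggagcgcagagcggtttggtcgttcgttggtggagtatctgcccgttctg
The Cenpa window held 2 matches to the NF-Y box, at −109 and −86 from the start, and 1 to the CHR core at 16. The H3f3b window held 4 matches to the NF-Y box, at −214, −190, −167 and −97, and a TATA box at −27, with no overlap between motifs. Windows were found for 7 members, all but H2ax, and the NF-Y box occurred in 6 of the 7, all but Macroh2a1. Of 32851 windows of the same length, 37.4% held the NF-Y box, 17.9% the CHR core and 13.6% the TATA box. The E2F letters TTTGGCGC and TTTCCCGC, held by 1.56% of windows, occurred in none of the 7. The GC content was 50.7% for Cenpa and 55.0% for H3f3b, near the median of 52.7%, and 74.0% for H3f3a.

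The members were compared with each other by the root mean square difference of their log2 CPM, each centred on its own mean over the 6 libraries. Macroh2a1 and Macroh2a2 were the closest pair (0.158), followed by H2az2 and Macroh2a2 (0.162), and H2ax and H3f3a were the farthest apart (0.605). The H3.3 pair differed by 0.289 and the H2A.Z pair by 0.184. Cenpa was closest to H2ax (0.312). As a description over 17278 genes with a mean of at least 1 CPM, the gene nearest to H2ax was H1f3 (0.104), a replication-dependent linker histone that rose (log2 fold change 1.30, edgeR adjusted p = 0.0373), followed by Zfpm1 and Cdca3. Nearest to Cenpa were Elfn1 (0.032), Arhgap30 and Phactr3, nearest to H3f3b were Gm20632 (0.063), Gfy and Dck, and nearest to H3f3a were Gm11808 (0.030), Nqo1 and Olfr620. For H2az1 they were Uqcr11, Sostdc1 and Sod1, for H2az2 Tspan18, H2-DMa and Atpif1, for Macroh2a1 Muc2, Taf6 and Osbpl1a, and for Macroh2a2 Fam220a_1, Map2k1 and Efnb2, at 0.028 to 0.073.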

How the data were processed

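Per the labels, each library started from 500 ng of RNA, cleared of ribosomal RNA by a depletion kit and prepared with NEBNext Ultra II. The authors deposited whole-number counts per gene and RPKM for 6 libraries, with their own log2 fold changes and p-values. No source used here names the aligner, counting tool, strand setting or genome build, and 12 further columns of per-sample values were not used. Coordinates of genes are as deposited, and sequences came from GENCODE M21 (GRCm38) and RefSeq (GRCm38.p6), whose coordinates differ from the deposited ones. The test behind the authors' deposited p-values and log2 fold changes is not given either.

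The test of the counts was edgeR 4.0.16 under R 4.3.3 (quasi-likelihood test, robust dispersions, TMM, filterByExpr, diet as the only term, two-sided, Benjamini-Hochberg over all genes tested, threshold 0.05). Standard errors came from the F statistic. The fit was tested on simulated data. Ratios, shares and sums were compared by exact permutation in SciPy 1.17.1. Alternatives were DESeq2 1.42.0, limma 3.58.1 (voom, and log2(RPKM + 1)), other scalings and filters, leaving out each library, the replicate number as a block, and a marrow or cycling score beside the diet. The 8 members, 15 gene lists and tests were chosen with earlier results of these data known. The genes named were all members and, per list, up to 3 past the test, or else the 2 with the highest RPKM and the one with the smallest p, and for each member the 3 nearest genes. One gene that the rule names is not reported here. The text also gives Tmcc1, H3f3aos, Gm47071 and Aifm2 for shared reads. Since no label states that the libraries came from different mice, p-values reflect only the spread among these 6 libraries, and that may be technical. A floor of 3 counts allows for counting error alone.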

Additional observations from a re-analysis of the deposited data

How the results depend on the processing

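Over 16 alternatives for each of the 8 members, 128 in all, the direction held in every one, and 7 passed the threshold that the reported fit missed. These were H2ax with the replicate block, without the low-count filter and in DESeq2, and H3f3b and Cenpa in the last 2. The number of members past the test, 0 as reported, was 1 with the replicate block (H2ax, edgeR adjusted p = 0.00273), 3 without the filter and 3 in DESeq2. The number of genes past the test, 22 as reported, was 153 with the replicate block, 172 without the filter, 343 in DESeq2, 39 in limma on log2(RPKM + 1), and 1 with the marrow score and 1 with the cycling score. Leaving out 1 library gave between 9 and 50 genes. The highest was without control replicate 4, and 3 libraries gave the lowest when left out (control 5, control 6 and zinc-deficient 5). List genes past the test, 1 as reported, were 24 with the replicate block, 12 without the filter, 19 in DESeq2, 0 with either score and 0 to 6 with 1 library left out. The cause was not tested. The replicate numbers do not pair the libraries by the labels, and deviations of same-numbered libraries correlated at −0.048, 0.151 and 0.068 over 18427 genes, so the block stands for a shared number only. The log2 ratio of H3f3a to H3f3b, −0.13, reversed to 0.11 without zinc-deficient replicate 4 and to 0.013 without control replicate 4, and ranged from −0.28 to 0.11. With 1 library left out, the log2 fold change stayed between 0.86 and 1.29 for H2ax, 0.81 and 1.16 for Cenpa, 0.58 and 0.69 for H3f3b, 0.33 and 0.75 for H3f3a, 0.28 and 0.55 for H2az1, 0.22 and 0.45 for H2az2, 0.15 and 0.26 for Macroh2a1, and 0.22 and 0.43 for Macroh2a2. Of 240 alternatives for the list medians, 27 moved by more than the spread between libraries. The bone median, −0.57, was −0.94 with the marrow score and −0.98 with the cycling score, and that of other histone variants, 0.39, was 0.71 and 0.91. With the cycling score, which is made from the G2 and M phase genes, their median was −0.24, and the marrow medians lay between −0.58 and −0.08. In limma on log2(RPKM + 1) the Cenpa log2 fold change was 0.50. Depth limited Cenpa most, at 82 to 251 counts. With 3 against 3, exact tests could not go below 0.1.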
